A study of Mus musculus with 8 samples.

Results

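The genes described here are 10 genes of megakaryocytes and platelets, measured in bone marrow stem and progenitor cells of mice with chronic myeloid leukaemia (CML). They were taken by symbol from the 48795 genes of the deposited count table, and each of Pf4, Ppbp, Itga2b, Itgb3, Gp1bb, Gp6, Gp9, Vwf, Selp and Treml1 matched 1 Ensembl identifier. The cells were LSK cells, which lack lineage markers and carry Sca-1 and c-Kit, sorted from C57BL/6 mice after 10 weeks of induced CML. Of the 8 libraries, 4 came from mice with SIRT1 deleted (cre+) and 4 from control (cre-) mice, so the disease and the strain were shared by both groups. SIRT1 is an NAD-dependent deacetylase. The sources used here do not give the promoter that drove the cre, the way CML was induced or the age of the animals. The labels call the libraries biological replicates, and the replicate numbers used here only name them.

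Megakaryocytes are the large marrow cells that shed platelets. Platelets stick to an injured vessel through the von Willebrand factor receptor, built from the products of Gp1ba, Gp1bb, Gp9 and Gp5, and are activated on collagen through glycoprotein VI (Gp6). They then bind to each other through the integrin of the Itga2b and Itgb3 products, and release alpha granules that hold the chemokines Pf4 and Ppbp, von Willebrand factor (Vwf), P-selectin (Selp) and the receptor Treml1. Part of this programme is also transcribed at a low level in stem cells that are biased towards platelet production, well before a megakaryocyte forms, and Vwf and Selp are genes of endothelial cells too.

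Pf4 and Ppbp are neighbours on chromosome 5 (GRCm38), with 2371 bases between the end of Ppbp (chr5:90768518-90770063) and the start of Pf4 (chr5:90772435-90773383), both on the plus strand. Pf4 RNA was counted in all 8 libraries and Ppbp RNA in 2. Of the other genes, Selp (chr1:164115264-164150026) was counted in every library and Gp6 (chr7:4363965-4397744, minus strand) in none. The other 6 are Itga2b (chr11:102453297-102470122, minus strand), Itgb3 (chr11:104608000-104670476), Gp1bb (chr16:18620317-18622403, minus strand), Gp9 (chr6:87778072-87779768), Vwf (chr6:125546774-125686679) and Treml1 (chr17:48359916-48367176), on the plus strand unless stated. The promoters of Pf4, Ppbp, Selp and Gp6, from 250 bases before to 50 bases after the RefSeq start site, are shown because they set detected members beside members that were at or near 0. Capitals mark GATA-type hexamers (AGATAA or AGATAG and also TGATAA or TGATAG) and ETS-type hexamers (AGGAAG or CGGAAG) on either strand, the letters bound by the GATA and ETS families to which the megakaryocyte factors GATA1 and FLI1 belong. Sequences are those of RefSeq on GRCm38.p6, written 5′ to 3′ on the strand of the gene, at chr5:90772185-90772484 and chr5:90768268-90768567 (plus strand), chr1:164115014-164115313 (plus strand) and chr7:4397695-4397994 (minus strand).
Pf4: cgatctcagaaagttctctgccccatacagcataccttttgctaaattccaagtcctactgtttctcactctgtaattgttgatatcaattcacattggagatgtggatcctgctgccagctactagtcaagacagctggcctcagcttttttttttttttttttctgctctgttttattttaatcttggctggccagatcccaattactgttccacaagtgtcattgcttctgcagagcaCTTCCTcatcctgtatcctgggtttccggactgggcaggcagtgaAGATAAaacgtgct
Ppbp: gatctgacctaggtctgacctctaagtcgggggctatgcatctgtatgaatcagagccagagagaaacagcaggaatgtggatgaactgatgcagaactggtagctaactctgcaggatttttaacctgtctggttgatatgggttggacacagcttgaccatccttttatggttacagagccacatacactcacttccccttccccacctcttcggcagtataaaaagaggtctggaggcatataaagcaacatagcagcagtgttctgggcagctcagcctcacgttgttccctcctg
Selp: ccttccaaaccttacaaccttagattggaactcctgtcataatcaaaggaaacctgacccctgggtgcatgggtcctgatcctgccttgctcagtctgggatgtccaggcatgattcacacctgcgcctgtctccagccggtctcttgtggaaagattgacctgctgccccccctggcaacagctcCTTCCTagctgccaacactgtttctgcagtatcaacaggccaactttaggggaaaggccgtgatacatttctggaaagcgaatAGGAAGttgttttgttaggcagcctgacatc
Gp6: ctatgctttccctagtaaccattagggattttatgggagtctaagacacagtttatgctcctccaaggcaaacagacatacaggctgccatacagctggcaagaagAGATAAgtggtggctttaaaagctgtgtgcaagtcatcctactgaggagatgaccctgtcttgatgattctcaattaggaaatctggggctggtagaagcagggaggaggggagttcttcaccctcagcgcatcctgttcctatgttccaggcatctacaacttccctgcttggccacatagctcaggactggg

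RefSeq gave a promoter for 8 of the 10 genes, all but Itgb3 and Vwf. An ETS-type hexamer stood in 5 of the 8, those of Pf4, Selp, Itga2b, Gp9 and Gp1bb, and in none of those of Ppbp, Gp6 and Treml1. These letters occur in 46.5% of all 32851 promoters of the same length, so their presence in a promoter is common. GATA-type hexamers stood in the promoters of Pf4, Gp1bb and Gp6, against 29.8% of all promoters. The Ppbp promoter was the 1 member promoter with the letters TATAAA (13.6% of all promoters), which it held at 2 places, 30 and 8 bases before the start site. The motif sets share no hexamer, and a match is a run of letters and no evidence of binding.

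Gene counts totalled 24648721 to 34280925 per Sirt1-deleted library and 18252562 to 28883834 per control library. The libraries with the fewest genes counted were Sirt1-deleted 1 (16154 genes) and control 2 (15316), where the other 6 held 16670 to 20342. Control 2 also stood apart in the 10 genes. It held counts for 5 of them, where the Sirt1-deleted libraries held 7 to 9 and the other controls 6 or 7. The sort markers were present, with Kit at 108 to 158 CPM (counts scaled to the same library total) in Sirt1-deleted libraries and 32.4 to 44.0 CPM in controls, and Ly6a, which encodes Sca-1, at 119 to 224 CPM in Sirt1-deleted libraries and 232 to 780 CPM in controls. Kit was called higher in Sirt1-deleted libraries (log2 fold change 1.89 ± 0.17, SE, edgeR adjusted p = 0.0145), a call lost in 6 of the 8 fits that left out a library (edgeR adjusted p of 0.0614 to 0.0989) and in titles starting with 2 and 4 (0.142). Sirt1 itself had 10.9 ± 4.24 CPM in Sirt1-deleted and 13.1 ± 4.92 CPM in control libraries (SD, n = 4 each; edgeR adjusted p = 0.797), but these whole-gene counts cannot tell an intact transcript from one that lacks an exon. RNA of other cell types was present as well, with 9 B and plasma cell genes summing to 5152 to 51050 CPM in Sirt1-deleted libraries and 8177 to 21770 CPM in controls.

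Most of the counts came from 3 of the 10 genes. Itga2b, Selp and Itgb3 together held 60.8 to 91.5% of the counts of the 10 genes in Sirt1-deleted libraries and 88.2 to 94.8% in controls. The share of 60.8% was that of Sirt1-deleted 1, where Gp9 had 1474 counts, Selp 1197 and Itgb3 488. Over the Sirt1-deleted group, Gp9 had 3406 counts and Itgb3 2872. Gp9, Pf4, Vwf and Gp1bb had 0 to 1474 counts in a library, and Treml1, Ppbp and Gp6, which mark mature megakaryocytes and platelets, were at or near 0. Tubb1, the platelet beta-tubulin, had 0, 0, 2 and 12 counts in Sirt1-deleted 1 to 4 and 0 in every control, and Myl9, a myosin light chain named after its values were seen, had no count in any library. Other platelet genes were better covered, such as Gp5 with 268 to 534 counts in Sirt1-deleted libraries and 0 to 73 in controls. In these bulk libraries, fewer cells of a type and less RNA per cell cannot be told apart.

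Per length, in CPM per kilobase of merged exons, the order of the genes was alike in both groups from the third place to the sixth. Gp9 averaged 32.6 ± 22.5 CPM per kb in Sirt1-deleted and 8.96 ± 7.57 in control libraries. Itga2b averaged 25.2 ± 9.54 CPM per kb in Sirt1-deleted and 22.4 ± 17.3 in control libraries (SD, n = 4 each). These 2 were not separable in Sirt1-deleted libraries, where Gp9 exceeded Itga2b in 1 of 4, whereas Itga2b exceeded Gp9 in 4 of 4 controls. Selp followed at 21.6 ± 7.39 CPM per kb in Sirt1-deleted and 8.21 ± 3.32 in control libraries. Pf4 came next at 12.3 ± 5.13 CPM per kb in Sirt1-deleted and 5.62 ± 2.25 in control libraries. Selp exceeded Pf4 in 3 of 4 Sirt1-deleted libraries and in 2 of 4 controls, so their order was not beyond the spread. Itgb3 lay below Pf4 in 4 of 4 Sirt1-deleted libraries and 3 of 4 controls, and averaged 3.96 ± 0.79 CPM per kb in Sirt1-deleted and 2.91 ± 1.83 in control libraries. Gp1bb was sixth in both groups, at 1.31 ± 1.07 CPM per kb in Sirt1-deleted and 0.585 ± 0.545 in control libraries. Since 91.1% of its exon bases also lie in exons of Sept5 on the same strand, this level and place are uncertain. Treml1 came next in Sirt1-deleted libraries at 0.603 ± 0.643 CPM per kb and was at 0 in controls. Vwf, the longest of the 10 at 16.06 kb of exons, averaged 0.585 ± 0.656 CPM per kb in Sirt1-deleted and 0.135 ± 0.101 in control libraries, and lay below Treml1 in 3 of 4 Sirt1-deleted libraries.

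**Figure D1:**
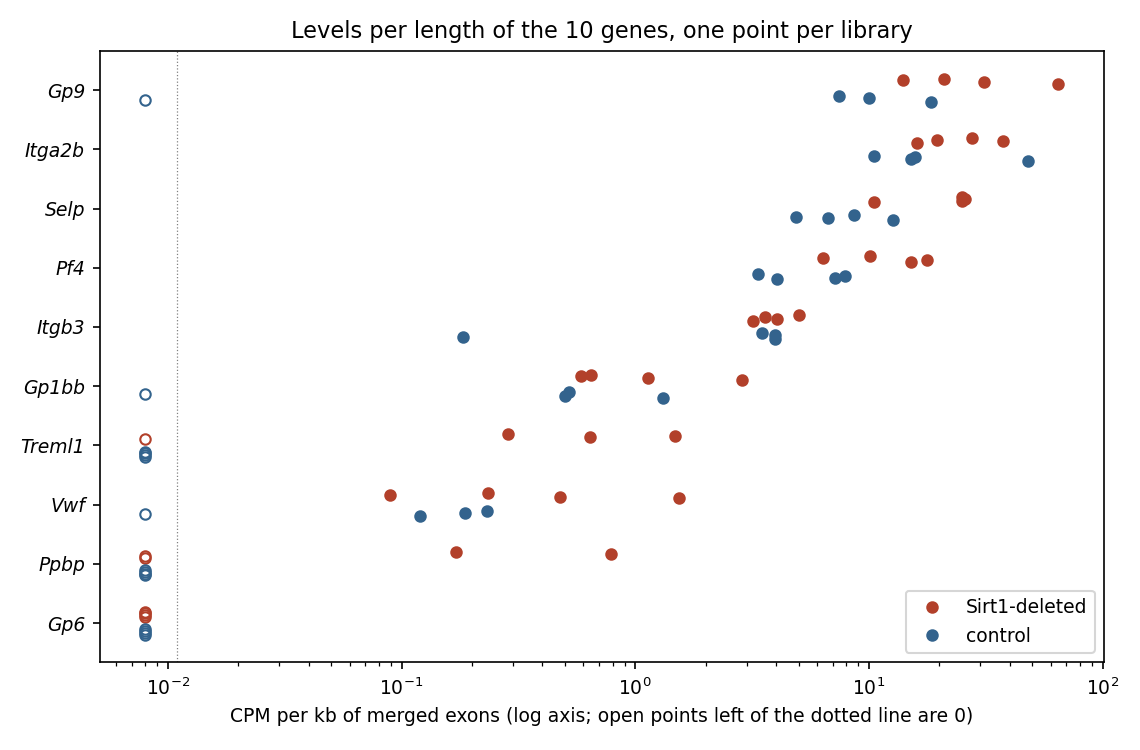
Level of each of the 10 genes per kilobase of merged exons (log axis), 1 point per library, Sirt1-deleted above control within each row. Open points at the left edge are libraries with no count. Gp9, Itga2b, Selp and Pf4 lie to the right, while Gp6 has no count in any library and Treml1 and Ppbp have none in any control.

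None of the 10 genes was called between Sirt1-deleted and control libraries. Of the 10, 7 had enough counts to be tested, and 0 of the 7 had an edgeR quasi-likelihood p under 0.05 after Benjamini-Hochberg adjustment, where 0.0846% of the 14178 genes tested were called, 0.0494% as higher and 0.0353% as lower in Sirt1-deleted libraries. At an unadjusted p under 0.05 there were 2, Selp and Pf4, both higher in Sirt1-deleted libraries, beside 16.2% of all genes tested in either direction. DESeq2 called 1 of the 7 and limma-voom with quality weights 1, in each case Selp, where these tools called 8.15% and 8.03% of all genes. For no member did every Sirt1-deleted library lie above every control, which held for 6.64% of all genes tested. The 7 log2 fold changes (Sirt1-deleted over control) ran from 0.17 to 2.12 with a median of 1.15, beside a median of 0.06 over all genes tested, and the median of the 7 was 0.52 without Sirt1-deleted 1 and control 2. A gene can pass the filter on low counts through the group in which it is higher, so these 7 do not stand for all 10.

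**Figure D2:**
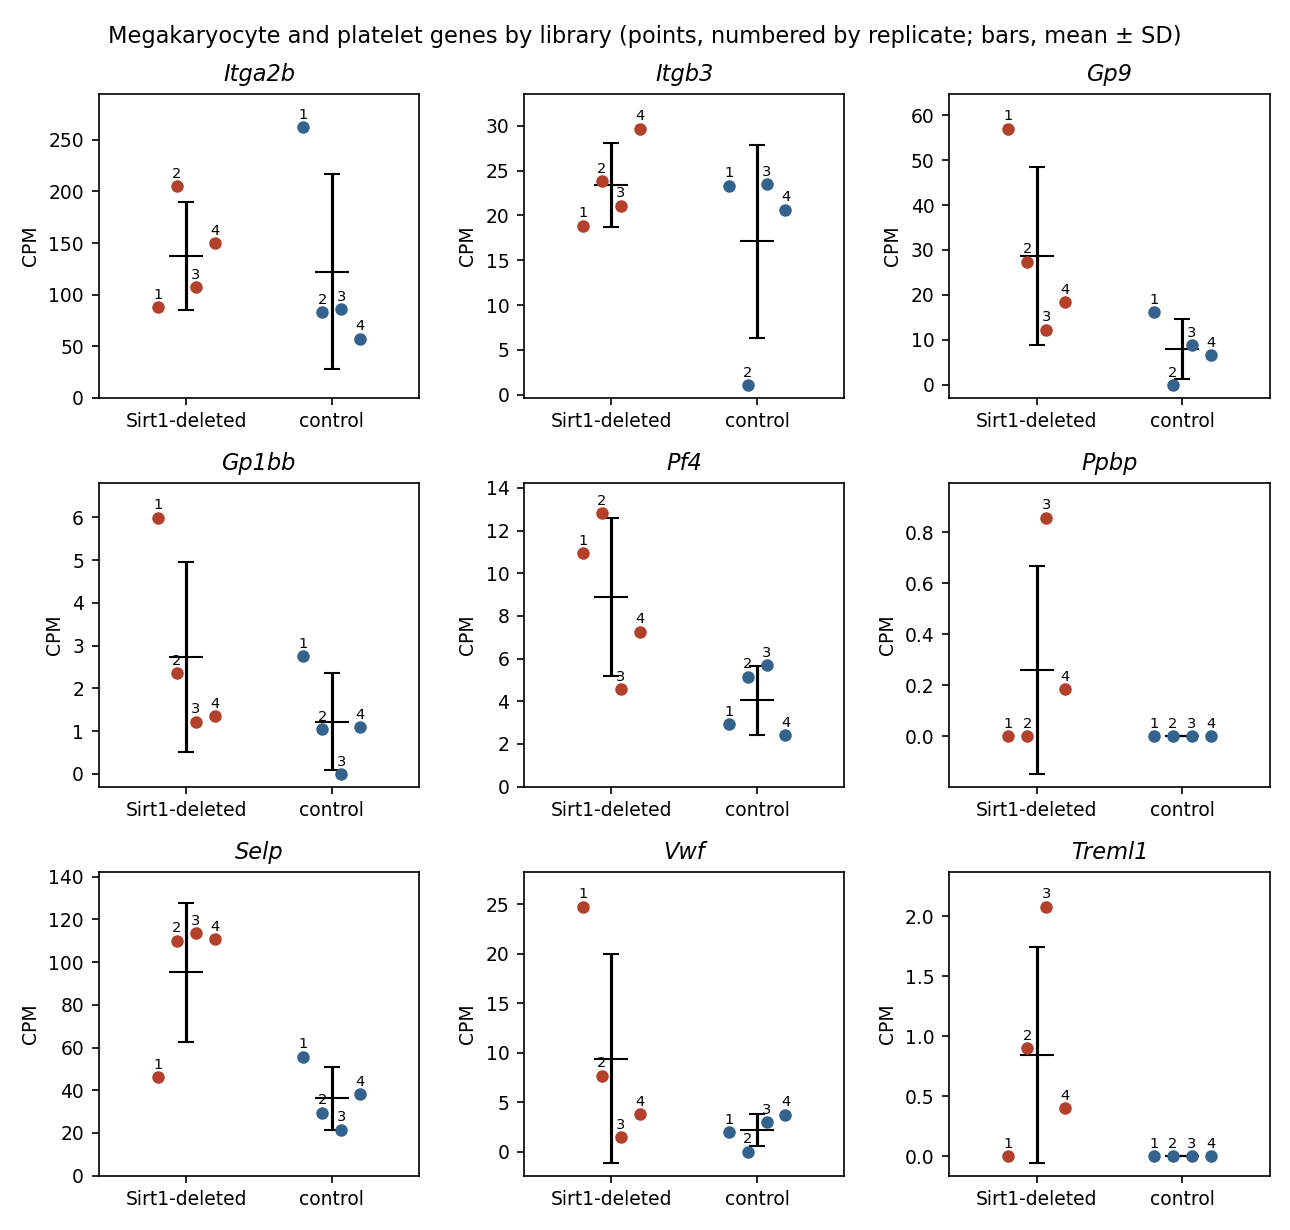
CPM of 9 of the 10 genes in each library (Gp6 had no count), Sirt1-deleted left of control, points numbered by replicate, with the mean and SD of 4 libraries. Selp is at 110 to 114 CPM in Sirt1-deleted 2 to 4 and at 46.2 CPM in Sirt1-deleted 1, against 21.6 to 55.7 CPM in controls, and Vwf, Gp9 and Gp1bb are highest in Sirt1-deleted 1.

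Selp, the adhesion receptor that alpha granules bring to the platelet surface, had the smallest p of the 7. It was at 46.2, 110, 114 and 111 CPM in Sirt1-deleted 1 to 4 and at 55.7, 29.5, 21.6 and 38.2 CPM in controls 1 to 4. Sirt1-deleted 2 to 4 lay close together above all controls, and Sirt1-deleted 1 lay within the range of the controls. The log2 fold change was 1.39 ± 0.37 (SE, edgeR adjusted p = 0.138), about 2.62-fold, and over the 15 alternatives it ran from 1.18 to 1.64. Leaving out Sirt1-deleted 1 gave 1.58 with an edgeR adjusted p of 0.0401. That fit called 451 genes, where the main fit called 12. The other libraries left out in turn gave edgeR adjusted p from 0.157 to 0.363 for Selp. DESeq2 gave an adjusted p of 0.00847 and limma-voom one of 0.0150. On GENCODE M21, 9.9% and 4.2% of the exon bases of Selp lie opposite exons of 2 genes on the other strand, and reads of a kit that does not mark strand cannot be told apart there.

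Pf4, the chemokine platelet factor 4, was low but present in every library. It had 283, 484, 112 and 236 counts in Sirt1-deleted 1 to 4, which are 10.9, 12.8, 4.57 and 7.26 CPM, and 68, 143, 103 and 51 counts in controls 1 to 4, which are 2.92, 5.15, 5.70 and 2.42 CPM. Sirt1-deleted 3 lay among the controls and the other 3 above them. The log2 fold change was 1.14 ± 0.48 (SE, edgeR adjusted p = 0.295), with 0.72 to 1.32 over the alternatives. Its neighbour Ppbp, the precursor of another platelet chemokine, had 0, 0, 21 and 6 counts in Sirt1-deleted 1 to 4 and none in any control. Ppbp was counted in the 2 Sirt1-deleted libraries with the lowest Pf4, so within that group the 2 neighbours did not rank alike.

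Vwf, which encodes the adhesive protein of platelets and vessel walls, turned on a single library. It was at 24.7, 7.66, 1.43 and 3.78 CPM in Sirt1-deleted 1 to 4 and at 1.94, 0, 2.99 and 3.74 CPM in controls 1 to 4. Sirt1-deleted 3 was below 3 of the controls, Sirt1-deleted 4 was nearly level with control 4, and Sirt1-deleted 1 held 640 of the 1087 counts of its group. The log2 difference of 2.12 ± 1.30 (SE, edgeR adjusted p = 0.479) was 0.95 without Sirt1-deleted 1 and 0.52 without both Sirt1-deleted 1 and control 2.

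Treml1, a receptor stored in alpha granules, was counted only in Sirt1-deleted libraries. It had 0, 34, 51 and 13 counts in Sirt1-deleted 1 to 4 and 0 in all 4 controls. The 98 pooled counts of the Sirt1-deleted group, against a limit of 3 counts over the control group, gave a ratio of 24.4 after scaling. That ratio allows for counting error in the control zeros only, not in the 98 counts, and not for the spread between libraries. With counts in 3 libraries and levels up to 2.08 CPM, Treml1 did not pass the filter on low counts and was not tested. Of the 4 Sirt1-deleted libraries, 1 was also at 0. Gp6, the collagen receptor, had 0 counts in all 8 libraries, which allows up to 0.0142 CPM over the libraries together.

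The integrin genes showed no separation. Itga2b, which encodes CD41, the alpha subunit and the earliest of these markers in stem and progenitor cells, was at 87.7, 205, 107 and 150 CPM in Sirt1-deleted 1 to 4 and at 263, 82.8, 86.1 and 57.4 CPM in controls 1 to 4. Control 1 was the highest of the 8 and 3 controls were the lowest. The log2 fold change was 0.17 ± 0.48 (SE, edgeR adjusted p = 0.9002), and it was 0.83 without control 1 and -0.33 in titles starting with 2 and 4. Control 1 also held the highest Gata1, 75.3 CPM against 1.11 to 12.9 CPM in the other controls, and the highest sum of 9 mast cell and basophil genes, 6815 CPM, where that sum was 376 to 1352 CPM in Sirt1-deleted libraries and 1239 to 2302 CPM in the other controls. The part of those cells in the Itga2b value was not tested.

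Itgb3, the beta subunit that pairs with Itga2b, was at 18.9, 23.9, 21.1 and 29.7 CPM in Sirt1-deleted 1 to 4 and at 23.4, 1.08, 23.5 and 20.7 CPM in controls 1 to 4. Apart from control 2, with 30 counts where no other library had under 424, the libraries of both groups lay between 18.9 and 29.7 CPM. The log2 difference of 0.45 ± 0.71 (SE, edgeR adjusted p = 0.806) was 0.02 without control 2. Per length, Itga2b exceeded Itgb3 by 5.03 to 9.29 times in Sirt1-deleted libraries and by 3.00 to 12.2 times in controls 1, 3 and 4, with 82.9 times in control 2. The ratio is taken within a library and does not depend on scaling, and RNA of the alpha subunit was in excess in all 8 libraries.

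The receptor for von Willebrand factor is built from 4 genes, of which Gp9 was the best covered. Gp9, a small subunit, was at 56.9, 27.4, 12.3 and 18.4 CPM in Sirt1-deleted 1 to 4 and at 16.2, 0, 8.81 and 6.58 CPM in controls 1 to 4. Sirt1-deleted 3 was below control 1 and the other 3 lay above all controls. The log2 fold change was 1.87 ± 1.15 (SE, edgeR adjusted p = 0.484), and it was 1.26 without Sirt1-deleted 1, 1.41 without control 2 and 0.83 without both.

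Gp1bb, the beta chain of the receptor, had 155, 89, 30 and 44 counts in Sirt1-deleted 1 to 4 and 64, 29, 0 and 23 in controls 1 to 4. Only Sirt1-deleted 1 lay above the controls in CPM, and without it the log2 difference of 1.15 ± 1.19 (SE, edgeR adjusted p = 0.693) was 0.39. On GENCODE M21, 91.1% of the exon bases of Gp1bb also lie in exons of Sept5 on the same strand, so the deposited counts may miss or misplace reads of Gp1bb. The other 2 receptor genes are described with the wider genes.

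**Figure D3:**
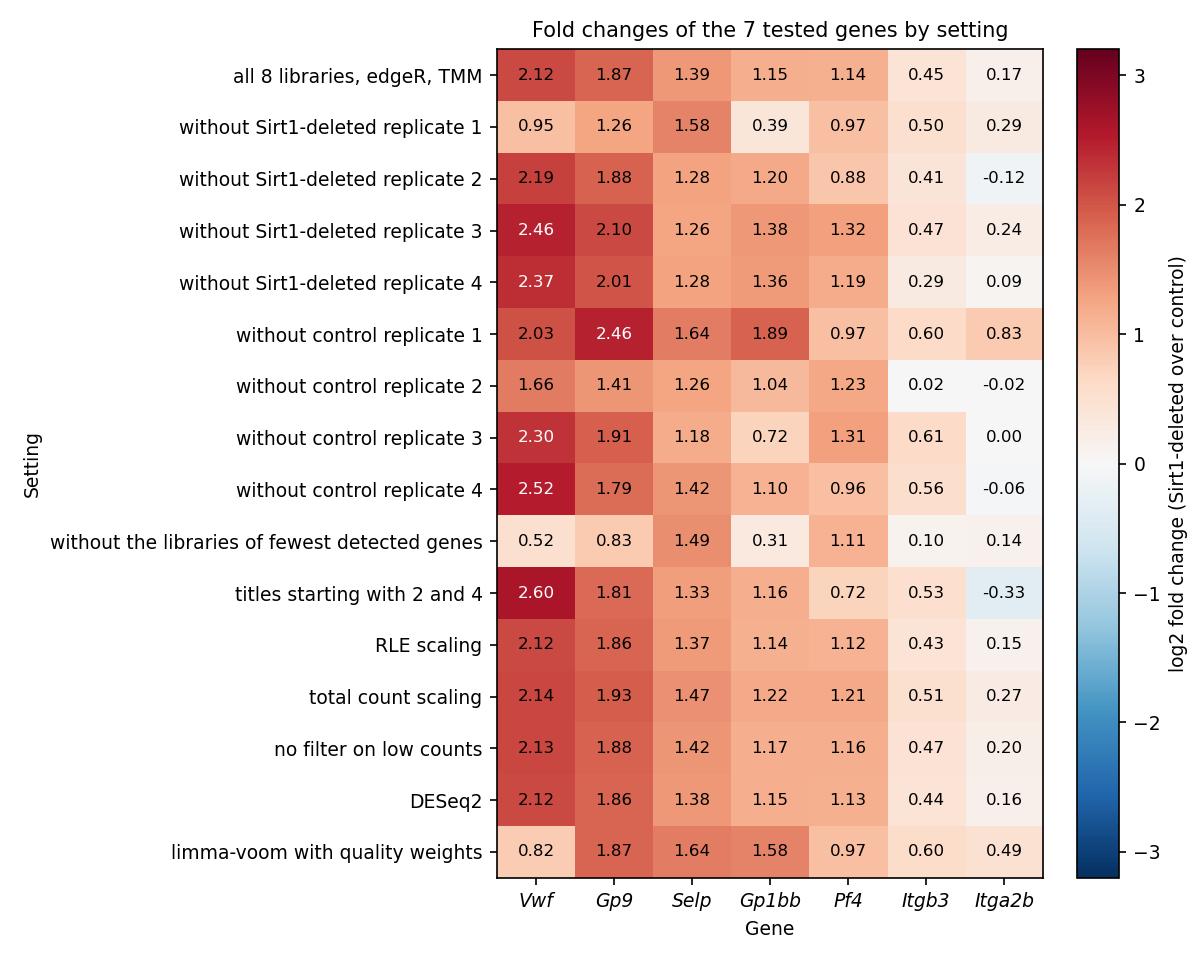
Log2 fold change (Sirt1-deleted over control) of the 7 tested genes, in columns, under the main setting and 15 alternatives, in rows, with the value in each cell and colour by sign and size. Selp stays between 1.18 and 1.64, Vwf drops to 0.52 without the libraries of fewest detected genes, and Itga2b takes both signs.

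Genes that act beside these 10 were taken as 4 further lists of megakaryocyte genes, for receptors, granule contents, transcription factors, and cytoskeleton and signalling. None of their 54 tested genes was called by edgeR after adjustment over all genes, where 0.0846% of all genes tested were. DESeq2 called 12 and limma-voom 11, where these tools called 8.15% and 8.03% of all genes. At an unadjusted p under 0.05, 14 were higher and 7 lower in Sirt1-deleted libraries, where 7.55% and 8.6% of all genes tested were. The groups did not overlap for 10 genes that were higher and 4 that were lower, beside 6.64% and 6.44% of all genes tested. The receptor list had a median log2 fold change of 0.51 over 15 tested genes, the granule list 0.31 over 11, the transcription factor list 0.40 over 12 and the cytoskeleton and signalling list 0.01 over 16.

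Among the receptors, Esam and Gp5 were higher in every Sirt1-deleted library than in any control, and P2ry1 was lower. Esam, an adhesion molecule of platelets, endothelium and stem cells, was at 14.7, 41.9, 32.1 and 49.8 CPM in Sirt1-deleted 1 to 4 and at 4.47, 9.98, 8.75 and 13.2 CPM in controls 1 to 4. The groups did not overlap (log2 fold change 1.93 ± 0.44, SE, edgeR adjusted p = 0.106). Pear1, a receptor of platelet contacts, averaged 82.7 ± 24.0 CPM in Sirt1-deleted and 34.0 ± 16.1 CPM in control libraries (SD, n = 4 each), with Sirt1-deleted 1 among the controls. The ADP receptor gene P2ry1 went the other way, at 3.03 ± 1.26 CPM in Sirt1-deleted and 10.1 ± 6.33 CPM in control libraries (log2 fold change -1.73 ± 0.54, SE, edgeR adjusted p = 0.175).

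Gp1ba, the von Willebrand factor-binding chain, had 1, 133, 103 and 155 counts in Sirt1-deleted 1 to 4 and 3, 0, 0 and 16 in controls 1 to 4. As with Treml1, Sirt1-deleted 1 sided with the controls, and the log2 fold change was 3.80 ± 1.71 (SE, edgeR adjusted p = 0.321). It was 6.03 without control 4, which held 16 of the 19 control counts. Gp5, the remaining subunit, was picked out after its values were seen. It had 298, 395, 268 and 534 counts in Sirt1-deleted 1 to 4 and 8, 0, 73 and 64 in controls 1 to 4, with groups that did not overlap (log2 fold change 2.74 ± 1.19, SE, edgeR adjusted p = 0.305). The 4 receptor genes thus did not share 1 pattern over the libraries: Gp9 and Gp1bb were highest in Sirt1-deleted 1, where Gp1ba had 1 count.

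**Figure D4:**
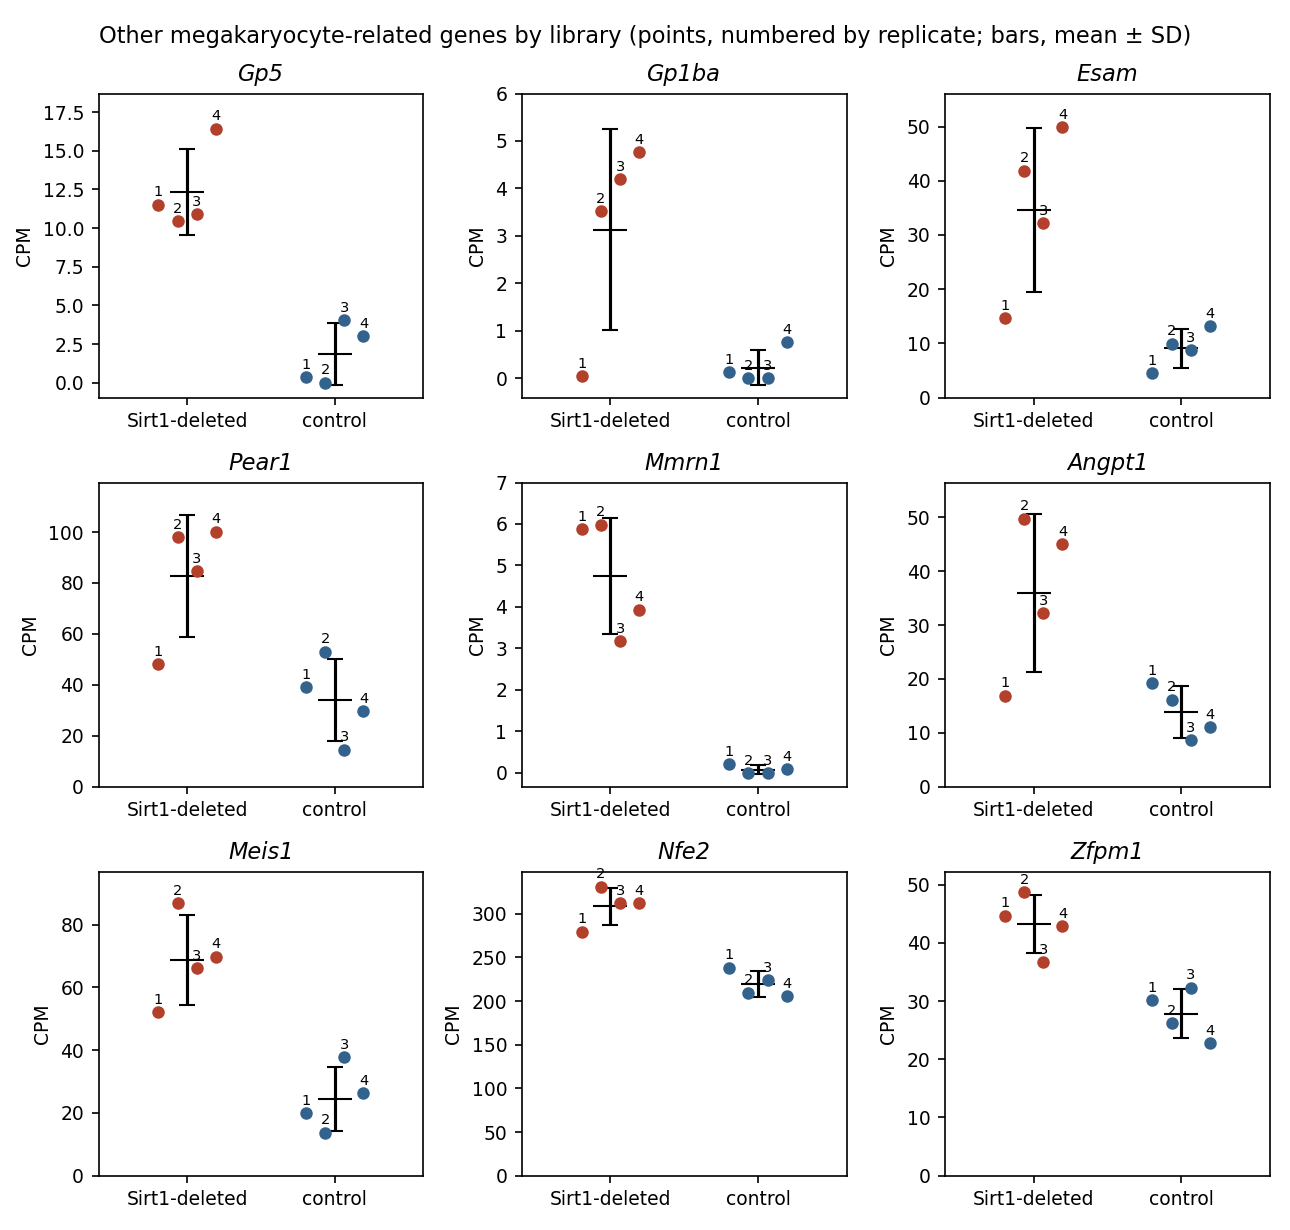
CPM of 9 further megakaryocyte-related genes in each library, Sirt1-deleted left of control, points numbered by replicate, with the mean and SD of 4 libraries. For Gp5, Esam, Mmrn1, Meis1, Nfe2 and Zfpm1 every Sirt1-deleted library lies above every control, and Gp1ba is near 0 in Sirt1-deleted 1.

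Of the granule and secreted genes, Mmrn1 showed the clearest contrast in counts. Mmrn1 encodes multimerin 1, a large alpha granule protein that binds factor V. It had 152, 226, 78 and 128 counts in Sirt1-deleted 1 to 4 and 5, 0, 0 and 2 in controls 1 to 4. All Sirt1-deleted libraries lay far above all controls, at 3.18 to 5.99 CPM against 0 to 0.215 CPM, and the log2 fold change was 5.84 ± 1.23 (SE, edgeR adjusted p = 0.101). Its size rests on 7 control counts. DESeq2 called it (adjusted p = 8.67e-10), as did limma-voom (adjusted p = 0.0187). Both tools also called Esam, Pear1, Angpt1, Nfe2 and Meis1, which were higher, and Tuba4a, Tuba8 and Rap1b, which were lower.

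Angpt1, a ligand of the receptor Tek, averaged 36.0 ± 14.7 CPM in Sirt1-deleted and 13.8 ± 4.82 CPM in control libraries, with Sirt1-deleted 1 among the controls. Srgn, the granule proteoglycan serglycin of many blood cells, averaged 523 ± 184 CPM in Sirt1-deleted and 1034 ± 507 CPM in control libraries (SD, n = 4 each). Their edgeR adjusted p were 0.147 and 0.223.

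The transcription factors of the lineage were split. Nfe2, needed for platelet release, was at 280, 331, 312 and 312 CPM in Sirt1-deleted 1 to 4 and at 238, 210, 224 and 205 CPM in controls 1 to 4. The groups did not overlap, and the 1.41-fold difference was small but even (log2 fold change 0.49 ± 0.10, SE, edgeR adjusted p = 0.0949). Meis1, a homeobox factor of stem cells and megakaryocytes, averaged 68.7 ± 14.3 CPM in Sirt1-deleted and 24.4 ± 10.3 CPM in control libraries (edgeR adjusted p = 0.101). Zfpm1, the GATA1 partner FOG1, averaged 43.3 ± 4.98 CPM in Sirt1-deleted and 27.9 ± 4.23 CPM in control libraries (edgeR adjusted p = 0.146).

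Gata1 and Fli1, of the families named with the promoter letters, and Runx1, another core factor of the lineage, showed no separation. Gata1 averaged 13.9 ± 1.63 CPM in Sirt1-deleted and 24.8 ± 34.1 CPM in control libraries, and its log2 difference of -0.83 ± 0.94 (SE, edgeR adjusted p = 0.723) was 0.77 without control 1. Fli1 averaged 56.3 ± 19.4 CPM in Sirt1-deleted and 51.9 ± 10.4 CPM in control libraries (log2 fold change 0.12, edgeR adjusted p = 0.887). Runx1 averaged 88.0 ± 16.6 CPM in Sirt1-deleted and 102 ± 22.3 CPM in control libraries (log2 fold change -0.22, edgeR adjusted p = 0.655).

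Of the 16 tested cytoskeleton and signalling genes, 8 had a positive log2 fold change and 8 a negative one. Without overlap, 2 were higher and 3 lower in Sirt1-deleted libraries, beside 6.64% and 6.44% of all genes tested. The 3 of smallest p were the 3 that were lower. Tuba4a, an alpha-tubulin, averaged 1193 ± 56.0 CPM in Sirt1-deleted and 1768 ± 227 CPM in control libraries (log2 fold change -0.57 ± 0.11, SE, edgeR adjusted p = 0.0950). Tuba8, another alpha-tubulin, averaged 15.1 ± 4.78 CPM in Sirt1-deleted and 57.2 ± 36.8 CPM in control libraries. Rap1b, the small GTPase that switches on platelet integrins, averaged 156 ± 16.7 CPM in Sirt1-deleted and 212 ± 17.9 CPM in control libraries (SD, n = 4 each). The edgeR adjusted p of Tuba8 and Rap1b were 0.1315 and 0.1342.

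**Figure D5:**
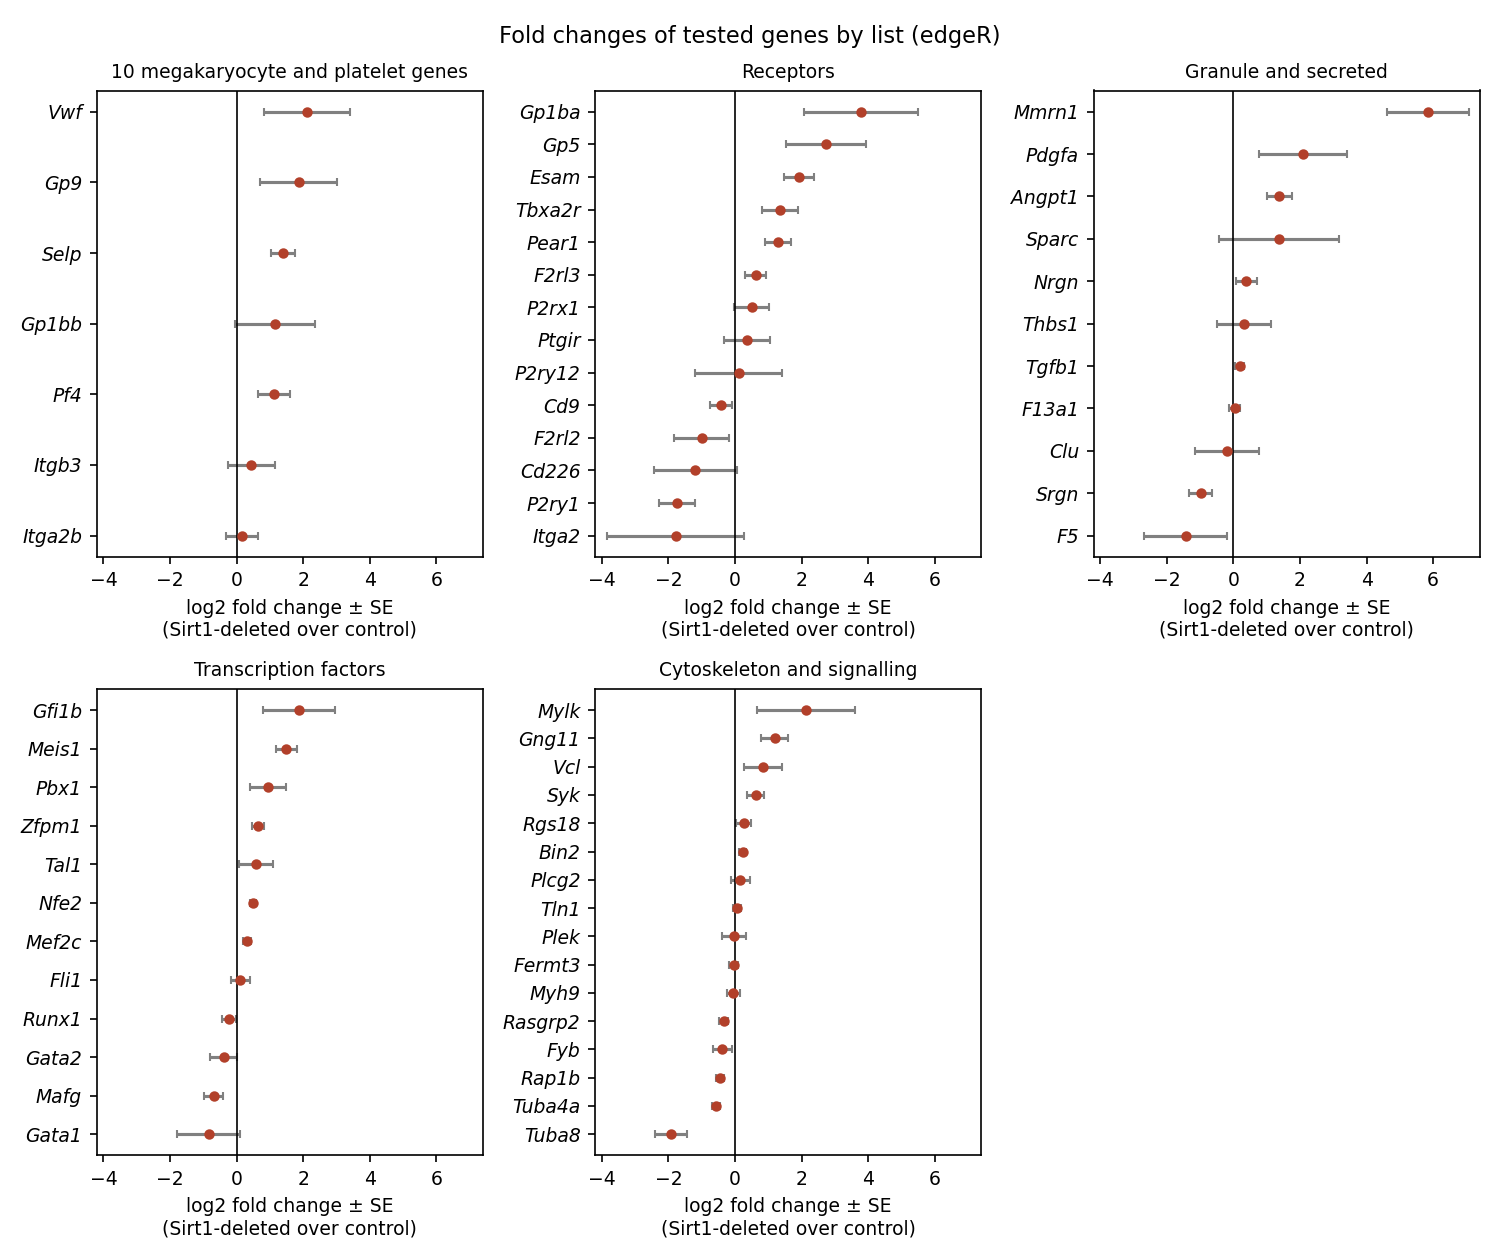
Log2 fold change (Sirt1-deleted over control) with SE for the tested genes among the 10 and in the 4 further lists, less 1 receptor gene that is not drawn. Among the 10, Vwf has the highest value and Itga2b the lowest, Mmrn1 lies farthest right of all genes drawn, and the 16 cytoskeleton and signalling genes have a median of 0.01.

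Markers of stem cells, which are among the sorted cells, and of other cell types also differed in level between the groups. Of the 10 stem cell genes 9 were tested, and 6 were higher without overlap, beside 6.64% of all genes tested. The 10 summed to 514 to 766 CPM in Sirt1-deleted libraries and 276 to 346 CPM in controls. Cd34 alone held 419.5 to 591.5 CPM of this in Sirt1-deleted libraries and 227 to 305 CPM in controls. Of the 12 endothelial genes 9 were tested, and 4 (Pecam1, Tek, Tie1 and Plvap) were higher without overlap, beside the same 6.64%. The 12 summed to 318 to 411 CPM in Sirt1-deleted and 187 to 283 CPM in control libraries. Egfl7 held 150 to 248 CPM of this in Sirt1-deleted and 124 to 215 CPM in control libraries. Their endothelial cadherin gene Cdh5 had 4, 1, 51 and 101 counts in Sirt1-deleted 1 to 4 and 2, 0, 4 and 72 in controls 1 to 4, and Cldn5 had a count in Sirt1-deleted 2 alone. Sirt1-deleted 1, the library highest in Vwf, also had the highest endothelial sum, 411 CPM, with 4 Cdh5 counts and no Cldn5 count. Egfl7, whose groups overlapped, held 248 CPM of that sum, so the rank of the sum leaned on this gene. Sirt1-deleted 1 was the highest library in Plvap and Tek, at 8.50 and 8.92 CPM, and had no count of Kdr or Stab2. Its Pecam1 was the lowest of its group, at 81.8 CPM against 103 to 105 CPM in the other Sirt1-deleted libraries. Sox17 had 226, 34, 6 and 19 counts in Sirt1-deleted 1 to 4 and 0, 0, 0 and 9 in controls 1 to 4. The 13 erythroid genes summed to 215 to 385 CPM in Sirt1-deleted and 98.3 to 223 CPM in control libraries, which overlapped. Most of that was Car2, a carbonic anhydrase also made outside red cells, at 153 to 363 CPM in Sirt1-deleted and 84.5 to 122 CPM in control libraries, and of the 6 erythroid genes tested 3 had a positive log2 fold change and 3, all globin genes, a negative one. Other lists were lower in Sirt1-deleted libraries by their summed levels or medians. The 11 T and NK cell genes summed to 475.5 to 557 CPM in Sirt1-deleted and 657 to 784 CPM in control libraries. Nkg7 alone held 406 to 491 CPM of this in Sirt1-deleted and 503 to 614 CPM in control libraries. Of the 10 tested T and NK cell genes 9 were negative and 4 were lower without overlap, beside 6.44% of all genes tested. Of the 8 neutrophil genes 7 were negative, at a median of -0.93 on the log2 scale, and of the 9 mast cell and basophil genes 8 were, at a median of -1.67. What part RNA of any of these cells had in the values above was not tested.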

How the data were processed

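The authors deposited whole-number counts of reads per Ensembl gene, not normalised, for 8 libraries, made with SMARTer Ultra Low Input v4 and Nextera XT chemistry per the labels, which does not mark strand. The submitters' processing notes name GRCm38, HTSeq 0.9.1, STAR 2.5.3, Trim Galore 0.5.0, DESeq2 1.20.0 and bcl2fastq 2.18.0.12. The sources used here give neither the annotation release nor the counting settings. The 5 rows that name no gene held 33.2 to 40.6% of a library's records and were left out. Control 4 was matched to its column by the start of the title, which no other sample shares, since the last letters differ. Symbols were found for 48349 identifiers (99.1%). Gene positions and exon lengths are from GENCODE M21.

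The test was edgeR's quasi-likelihood F test (edgeR 4.0.16 under R 4.3.3 with limma 3.58.1), after filterByExpr and TMM scaling, and was two-sided. P-values were adjusted over 14178 genes by the Benjamini-Hochberg method, with calls made below 0.05. CPM used TMM library sizes. The SE was obtained by dividing the size of the log2 fold change by the root of its F statistic. The procedure was tested on simulated data, in which genes of at least 5 CPM were changed 2-fold or 4-fold. It recovered 8% of 100 genes changed 2-fold and 71% of 100 changed 4-fold, with 1 false call among 80. The simulation capped the spread of the most variable genes and drew each gene independently, with no shift of a whole library. These rates need not hold for the most variable genes here. P-values set the difference between the groups against the spread between these libraries. The members and lists were chosen with earlier results of these data known. Genes named beside the 10 are the 3 of smallest p in each list, a preset few (Gp1ba, Gata1, Fli1, Runx1, Nfe2, Tubb1, Kit, Ly6a, Sirt1), and others said to be picked out or shown as cell markers. Alternatives were RLE and total count scaling, no filter, DESeq2 1.42.0, limma-voom with quality weights, leaving out each library, leaving out the 2 libraries of fewest detected genes, and titles starting with 2 and 4. Titles of the genotypes start with different digits, and what that digit marks cannot be told apart from genotype. Some listed genes are not reported here, though counts and sums over the lists include them.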

Additional observations from a re-analysis of the deposited data

Results flagged for a closer look

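Of 59 groups of 4 libraries checked, for the genes named by rule and Gp5, 6 held a library whose gap to its nearest neighbour exceeded 0.829 of the group's range, where chance gives about 1 in 20. Among the 10 genes, Selp in Sirt1-deleted 1 was low at 46.2 CPM, against 110 to 114 CPM in the other Sirt1-deleted libraries. Itga2b in control 1 was high at 263 CPM, against 57.4 to 86.1 CPM in the other controls. Itgb3 in control 2 was low at 1.08 CPM, against 20.7 to 23.5 CPM. Among the wider genes, Gata1 in control 1 was high at 75.3 CPM, Gp1ba in control 4 was high at 0.758 CPM, and Tuba4a in control 4 was low at 1431 CPM.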

How the results depend on the processing

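The count of called genes depended on the tool and the libraries. It was 12 (7 higher, 5 lower) and became 1281 (591 and 690) with DESeq2, 1139 (376 and 763) with limma-voom, 311 (76 and 235) without the 2 libraries of fewest detected genes and 1 (1 and 0) in titles starting with 2 and 4. With each library left out in turn it was 0 to 451, with 0 to 79 higher and 0 to 372 lower. The 451 came without Sirt1-deleted 1. The number of the 10 genes called was 0, and 1, in each case Selp, with DESeq2, with limma-voom and in 1 of the leave-one-out fits (range 0 to 1). The median of the tested genes among the 10 was 0.52 without the 2 libraries of fewest detected genes. Itga2b ran from -0.12 to 0.83 with a library left out and was -0.33 in titles starting with 2 and 4. Gata1 ran from -1.25 to 0.77 and was 0.39 with limma-voom, and Fli1 ran from -0.042 to 0.298. The causes were not tested. Of 419 recomputed values of single genes, 373 kept their sign and side of the threshold, 30 passed it, 7, all of Kit, no longer did and 9 changed sign. Gp1ba could not be tested in titles starting with 2 and 4. No paired analysis was possible because the labels number no replicates. Low counts limit what Vwf, Gp1bb, Treml1 and Ppbp can show, and a count of 0 allows 0.0795 to 0.166 CPM per library.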
